A study of Mus musculus with 10 samples.

Results

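Branched-chain amino acid catabolism is described here by 10 genes, chosen by gene symbol from the 20692 genes of one deposited count table: Bcat2, Bckdha, Bckdhb, Dbt, Bckdk, Ppm1k, Ivd, Mccc1, Mccc2 and Hibadh. All 10 symbols were found once each, and all 10 had enough reads to be tested, with 177 to 2820 reads per gene and library. The table covers 10 hearts of wild-type FVB/NJ mice, an inbred strain, aged 9 weeks and all labelled female. Of these, 5 are sham-operated and 5 had undergone TAC (transverse aortic constriction) 1 week earlier, an operation that narrows the aorta and makes the left ventricle pump against a higher pressure. The titles name the operation only for the TAC libraries, and the sham group is given by the series' design text. Polyadenylated RNA came from the ventricular apex, although the tissue is labelled whole heart. No label gives animal identifiers, so p-values measure the spread between these libraries.

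Leucine, isoleucine and valine cannot be made by mammals, and striated muscle is a main site where their breakdown starts. A transaminase first moves the amino group away and leaves a branched-chain keto acid. The branched-chain keto acid dehydrogenase complex (BCKDH), in the mitochondrial matrix, then removes carbon dioxide in a step that cannot be reversed, and a dedicated kinase and phosphatase switch the complex off and on. Past that step each amino acid has its own branch, which ends in acetyl-CoA, acetoacetate or propionyl-CoA. In cardiac biology the pathway is known for a drop in the failing heart and for its link to the transcription factor Klf15.

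All 10 genes were lower in TAC hearts than in sham hearts. Each fell past an adjusted p of 0.05 by edgeR, in a test over 12001 genes in which 17.0% of genes fell and 35.8% changed in either direction. In each of the 10 genes every TAC library lay below every sham library, which was so for 11.6% of all tested genes. The median log2 fold change of the 10 genes was -0.59, against 0.00 over all tested genes, and single genes ranged from -0.75 (Bckdha) to -0.30 (Bckdk). The summed level of the 10 genes was 952 to 1110 CPM (read counts divided by library size) in sham libraries and 660 to 767 CPM in TAC libraries. Library sizes were scaled by the trimmed mean of M-values (TMM), CPM puts each on the same total, fold changes are TAC over sham, and edgeR's quasi-likelihood p-values were adjusted by Benjamini-Hochberg over all tested genes. In bulk tissue, fewer cells of a type and less RNA per cell cannot be told apart.

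The libraries had 7410967 to 10126574 counts each. The library labelled TAC replicate 1 did not match its female label, with 14 counts of Xist against at least 1042 in each other library, and 155 counts of the Y-linked gene Ddx3y, which was at 0 in the rest. It had the lowest level of its group in 6 of the 10 genes and the highest in 2. Without it all 10 genes still fell, and 15.1% of all tested genes did. The submitters' processing notes list different aligner versions and genome builds for the sham and the TAC libraries, and a difference made by processing cannot be told apart from one between the groups. Cardiomyocyte transcripts were abundant in every library: 12 marker genes summed to 67100 to 75500 CPM in sham and to 57500 to 66500 CPM in TAC.

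**Figure D1:**
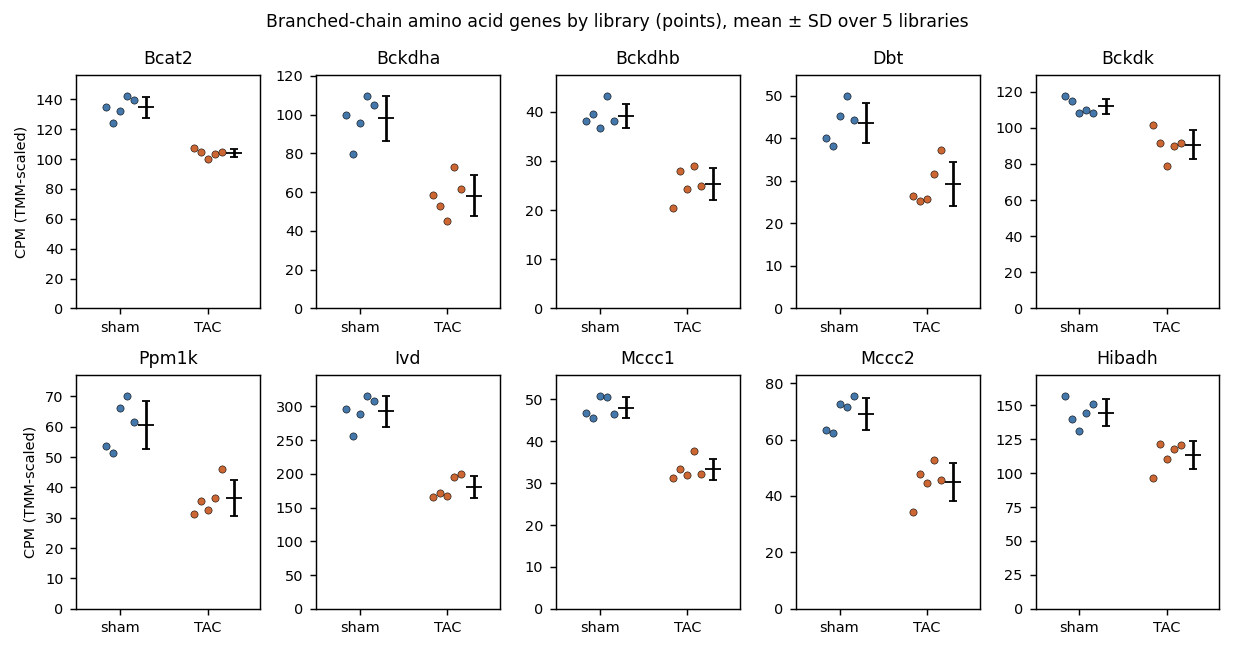
Level of each of the 10 genes in every library, in TMM-scaled CPM on linear axes that start at 0 (blue points: 5 sham libraries; orange points: 5 TAC libraries; black bars: mean ± SD over the 5 libraries). In every panel the highest TAC library lies below the lowest sham library, with the narrowest gap in Dbt, where they are at 37.3 and 38.2 CPM.

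The windows upstream of the start sites of these genes are shown because the genes fell together. RefSeq promoter windows (build GRCm38.p6, 250 bases before the start) were matched for 9 of the 10 genes, all but Dbt. A CCAAT box, the core letters CCAAT read on either strand, was found in 7 of the 9 windows (Bckdhb, Bckdk, Hibadh, Ivd, Mccc1, Mccc2 and Ppm1k), and in 36.0% of the windows of 8461 tested genes. It was absent from the windows of Bcat2 and Bckdha. In these windows the longest stretch outside annotated exons was 0 bases for Bcat2 and 30 bases for Bckdha. Their absence of a box therefore describes mostly exon-covered sequence. The 5 windows with more than 1 CCAAT box are printed 5′ to 3′ on the gene's strand, with the CCAAT letters of either strand in capitals. Each is limited to a stretch of at most 150 bases with no annotated exon. The printed stretches hold 3 of the 4 boxes of Ivd and 2 of the 3 of Mccc1:

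Ivd, chr2:118861804-118861953, plus strand: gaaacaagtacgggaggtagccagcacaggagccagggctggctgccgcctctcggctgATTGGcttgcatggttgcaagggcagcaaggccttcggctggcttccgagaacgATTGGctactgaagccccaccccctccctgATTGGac
Mccc1, chr3:36000712-36000861, minus strand: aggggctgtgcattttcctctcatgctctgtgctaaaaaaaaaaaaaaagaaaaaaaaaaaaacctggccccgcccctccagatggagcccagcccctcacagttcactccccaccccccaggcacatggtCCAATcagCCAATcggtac
Mccc2, chr13:100015640-100015789, minus strand: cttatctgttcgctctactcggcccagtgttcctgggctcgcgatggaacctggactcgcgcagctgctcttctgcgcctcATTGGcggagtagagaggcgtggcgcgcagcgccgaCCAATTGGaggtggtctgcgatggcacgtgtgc
Bckdhb, chr9:83925023-83925136, plus strand: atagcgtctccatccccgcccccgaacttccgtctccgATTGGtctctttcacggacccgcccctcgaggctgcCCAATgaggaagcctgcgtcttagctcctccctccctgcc
Ppm1k, chr6:57535488-57535637, minus strand: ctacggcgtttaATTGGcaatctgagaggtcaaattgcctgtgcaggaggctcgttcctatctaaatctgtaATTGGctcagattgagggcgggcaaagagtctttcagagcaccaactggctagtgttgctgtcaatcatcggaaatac

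In the Mccc2 stretch, CCAAT and its reverse complement ATTGG overlap. The letters AAGGTCA, a core of nuclear receptor motifs, were in none of the 9 windows and in 2.77% of those of tested genes. GGGCGG was in 4 of the 9 and in 60.7%, and CACCC in 7 of the 9 and in 58.3%, both strands counted. These motifs were chosen after the sequences had been seen, and a match or its absence describes letters only.

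Bcat2 (ENSMUSG00000030826, chr7:45570153-45589711, plus strand, GRCm38) encodes the mitochondrial transaminase that starts the pathway in muscle. Its level was 134.7, 124.3, 132.4, 142.4 and 139.5 CPM in sham replicates 1 to 5, and 107.6, 104.8, 100.4, 103.3 and 104.8 CPM in TAC replicates 1 to 5. The TAC libraries lay closer together than those of any other of the 10 genes, with a coefficient of variation of 2.52%, all below the lowest sham library. Bcat2 fell from 134.6 ± 7.0 to 104.2 ± 2.6 CPM (mean ± SD, n = 5 each), a log2 fold change of -0.37 ± 0.05 (SE, adjusted p = 0.000175 by edgeR). Part of its annotated exons, 15.9%, is shared with a non-coding gene on the other strand, 0610005C13Rik, whose reads cannot be told apart from its own because the libraries do not keep the strand.

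The genes of the BCKDH complex fell as well. Bckdha (ENSMUSG00000060376, chr7:25629946-25658981, minus strand) and Bckdhb (ENSMUSG00000032263, chr9:83925145-84124240, plus strand) encode the alpha and beta subunits of the decarboxylase, the component named E1. Bckdha was at 99.9, 79.6, 95.7, 109.7 and 105.2 CPM in sham replicates 1 to 5 and at 58.6, 52.7, 45.0, 73.1 and 61.8 CPM in TAC replicates 1 to 5. Sham replicate 2 was low and TAC replicate 4 high in their groups, and the groups did not overlap. Bckdha fell by 40.5% (log2 fold change -0.75 ± 0.12, adjusted p = 0.000421 by edgeR). Of its annotated exon bases, 61.7% overlap exons of B3gnt8, a glycosyltransferase gene on the other strand, which had a mean of 4.68 CPM in the sham group and 6.5 CPM in the TAC group. Reads in the overlap could have been given to either gene or to none, so the level of Bckdha is uncertain.

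Bckdhb, which has no exonic overlap with another gene, gave 38.0, 39.5, 36.7, 43.2 and 38.1 CPM in sham replicates 1 to 5 and 20.5, 27.9, 24.3, 28.9 and 24.8 CPM in TAC replicates 1 to 5. TAC replicate 1 was the lowest, and the highest TAC library was at 78.7% of the lowest sham library, one of the widest gaps of the 10 genes. The log2 fold change was -0.63 ± 0.09 (adjusted p = 0.000201 by edgeR). Dbt (ENSMUSG00000000340, chr3:116513070-116549981, plus strand) encodes the transacylase that forms the core of the complex, the component named E2. It was at 38.2 to 50.0 CPM in sham, highest in replicate 4, and at 26.5, 25.3, 25.8, 31.5 and 37.3 CPM in TAC replicates 1 to 5. TAC replicates 4 and 5 lay above the other 3, and the gap to sham was the narrowest of the 10 genes (log2 fold change -0.57 ± 0.11, adjusted p = 0.00168 by edgeR). Dld encodes the third component, a dehydrogenase that other mitochondrial complexes also use, and it fell less in log2 terms (-0.39 ± 0.09, adjusted p = 0.00467 by edgeR), a difference from the other components that was not tested.

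The kinase and the phosphatase of the complex both fell. Bckdk (ENSMUSG00000030802, chr7:127904082-127910221, plus strand) encodes the kinase that phosphorylates the E1 alpha subunit and inactivates the complex. It gave 117.7, 115.0, 108.0, 109.9 and 108.4 CPM in sham replicates 1 to 5 and 101.4, 91.6, 79.1, 89.7 and 91.4 CPM in TAC replicates 1 to 5, TAC replicate 1 being the highest of its group. It fell by 18.9% (log2 fold change -0.30 ± 0.06, adjusted p = 0.00273 by edgeR). This was the smallest of the 10 falls, although without TAC replicate 1 Hibadh had a smaller one (-0.30, against -0.35 for Bckdk). Ppm1k (ENSMUSG00000037826, chr6:57506502-57535468, minus strand) encodes the phosphatase that removes this phosphate and reactivates the complex. It gave 53.8, 51.2, 66.3, 70.1 and 61.5 CPM in sham replicates 1 to 5 and 31.2, 35.5, 32.5, 36.6 and 46.2 CPM in TAC replicates 1 to 5. Ppm1k varied more than any other of the 10 genes in sham (coefficient of variation 13.3%), and TAC replicate 5 was the highest of its group. It fell by 39.8% (log2 fold change -0.73 ± 0.11, adjusted p = 0.000388 by edgeR). The falls of Bckdha and Ppm1k lay within their errors of each other, and which was deeper turned with single libraries left out (without TAC replicate 5, -0.77 for Bckdha and -0.83 for Ppm1k).

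The balance of kinase to phosphatase transcripts was compared within each library, where library scaling plays no part. The ratio of Bckdk to Ppm1k counts was 2.19, 2.24, 1.63, 1.57 and 1.76 in sham replicates 1 to 5 and 3.24, 2.58, 2.43, 2.45 and 1.98 in TAC replicates 1 to 5. Of the TAC libraries, 4 lay above every sham library, and TAC replicate 5 lay within the sham range. The mean log2 ratio was 0.43 ± 0.16 (SE) higher in TAC, a ratio 1.35-fold that of sham, with p = 0.0397 in an exact two-sided permutation test over every way of dividing the 10 libraries 5 and 5. Adjusted over the 4 ratios compared, p was 0.159 by the same exact test, so the difference did not pass. Without TAC replicate 1, which had the highest ratio, the difference was 0.34.

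The other 3 ratios joined subunits that work together. The ratio of Bckdha to Bckdhb counts was 2.51 ± 0.287 in sham and 2.32 ± 0.439 in TAC (log2 difference -0.12 ± 0.15, exact permutation p = 0.365). That of Dbt to Bckdha was 0.447 ± 0.0339 and 0.509 ± 0.0764 (log2 difference 0.18 ± 0.11, exact permutation p = 0.151), and that of Mccc1 to Mccc2 0.698 ± 0.0475 and 0.750 ± 0.0893 (log2 difference 0.10 ± 0.08, exact permutation p = 0.444). For each of these 3 ratios the groups overlapped, and no difference was detectable with 5 libraries a group. Adjusted over the 4 ratios, the exact p-values were 0.444, 0.302 and 0.444. The ratios that hold Bckdha share the uncertainty of its level from the exon overlap with B3gnt8.

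**Figure D2:**
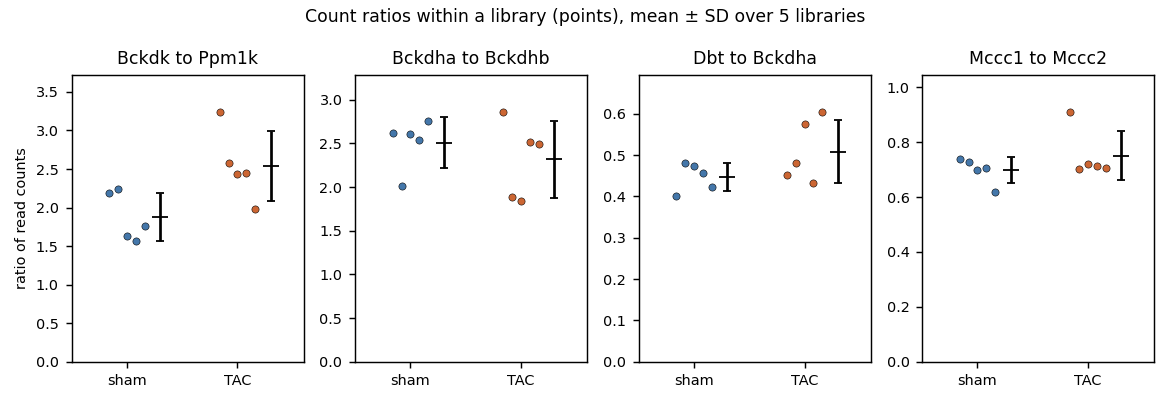
Ratios of read counts between genes within each library, on linear axes that start at 0 (blue points: 5 sham libraries; orange points: 5 TAC libraries; black bars: mean ± SD). The Bckdk to Ppm1k ratio has a mean of 1.88 in sham and 2.53 in TAC with 1 TAC library in the sham range, and in the other 3 panels the groups overlap more.

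The genes of the leucine branch fell. Ivd (ENSMUSG00000027332, chr2:118861954-118882909, plus strand) encodes isovaleryl-CoA dehydrogenase, which acts next after BCKDH on the carbon chain of leucine. Its level was 295.6, 256.3, 289.2, 315.3 and 308.4 CPM in sham replicates 1 to 5 and 166.4, 171.8, 166.7, 195.4 and 199.8 CPM in TAC replicates 1 to 5. The highest TAC library was at 78.0% of the lowest sham library, the widest gap of the 10 genes. Ivd had the smallest adjusted p of the 10 genes (log2 fold change -0.70 ± 0.07, adjusted p = 4.45e-05 by edgeR).

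Mccc1 (ENSMUSG00000027709, chr3:35959312-36000678, minus strand) and Mccc2 (ENSMUSG00000021646, chr13:99948530-100015639, minus strand) encode the biotin-carrying alpha subunit and the beta subunit of methylcrotonyl-CoA carboxylase, the step after Ivd. Mccc1 was at 45.5 to 50.8 CPM in sham and at 31.3 to 37.7 CPM in TAC, highest in TAC replicate 4 (log2 fold change -0.53 ± 0.07, adjusted p = 0.000106 by edgeR). Mccc2 was at 62.4 to 75.4 CPM in sham and at 34.4, 47.7, 44.5, 52.7 and 45.7 CPM in TAC replicates 1 to 5. TAC replicate 1 stood low, and the groups did not overlap with or without it (log2 fold change -0.62 ± 0.10, adjusted p = 0.000478 by edgeR). The next enzyme of this branch, the hydratase Auh, fell by 25.0% (log2 fold change -0.41 ± 0.07, adjusted p = 0.000437 by edgeR).

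Hibadh (ENSMUSG00000029776, chr6:52546228-52640389, minus strand) encodes 3-hydroxyisobutyrate dehydrogenase of the valine branch, whose substrate can leave the cell. It was at 156.9, 140.2, 131.0, 144.2 and 151.3 CPM in sham replicates 1 to 5 and at 96.2, 121.4, 110.2, 118.2 and 121.0 CPM in TAC replicates 1 to 5. TAC replicate 1 was the lowest of its group. Together with Bckdk and Bcat2, Hibadh was among the 3 genes with the smallest falls (21.7%, log2 fold change -0.35 ± 0.07, adjusted p = 0.00238 by edgeR).

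Levels were compared between genes per kilobase of the annotated transcript with the longest coding sequence. In sham, Ivd, Hibadh and Bcat2 were highest, at 79.9 ± 6.26, 79.3 ± 5.48 and 76.0 ± 3.95 CPM per kilobase, and their libraries overlapped. Bckdha followed at 51.6 ± 6.1, then Bckdk at 32.8 ± 1.27 and Mccc2 at 32.5 ± 2.74, which overlapped, and Bckdhb at 26.5 ± 1.69 CPM per kilobase. Mccc1, Dbt and Ppm1k were lowest, at 19.6 ± 1.01, 13.2 ± 1.41 and 10.9 ± 1.44 CPM per kilobase, and the libraries of the latter pair overlapped. In TAC, the means of Hibadh (62.1 ± 5.82) and Bcat2 (58.8 ± 1.48) were above that of Ivd (49.1 ± 4.44 CPM per kilobase), although Hibadh and Ivd libraries overlapped, and the other 7 genes kept their order. The place of Bckdha is uncertain because of its exon overlap with B3gnt8. Several places rest on the transcript used. Over all annotated exon bases, 10179 in place of 1825 for Hibadh, Hibadh was number 7 of the 10 in sham, Bckdha number 2, above Bcat2, and Mccc1 number 10, below Dbt and Ppm1k.

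Beyond the 10 genes, 21 other genes of the pathway fixed for comparison were also lower for the most part under TMM scaling. Of them 14 fell, 2 rose and 5 did not pass, where 17.0% of all tested genes fell and 18.8% rose. Scaled to tricarboxylic acid cycle genes, 2 of the 21 fell and 8 rose, where 1.52% and 69.6% of all tested genes did. The median log2 fold change of the 21 genes was -0.39 under TMM scaling. All 4 genes listed under isoleucine, not all of them particular to it, fell. Acadsb, a short branched-chain acyl-CoA dehydrogenase, fell by 26.5%, Echs1, a hydratase, by 29.0%, Acat1, a thiolase, by 28.2% and Hsd17b10, a dehydrogenase, by 30%. Of the 3 other genes listed under valine, Aldh6a1, which makes propionyl-CoA from the semialdehyde that Hibadh yields, fell by 34.5%. Hibch, a hydrolase, fell by 13.3%, a call lost with library totals (adjusted p = 0.194 by edgeR). Scaled to tricarboxylic acid cycle genes, Hibch passed as higher (0.21, adjusted p = 0.022 by edgeR). Acad8, isobutyryl-CoA dehydrogenase, had a log2 fold change of -0.22 ± 0.09 and did not pass (adjusted p = 0.0685 by edgeR), but it passed without TAC replicate 4 (-0.27, adjusted p = 0.0403) and without TAC replicate 5 (-0.29, adjusted p = 0.0181). All 6 genes of propionyl-CoA disposal fell, among them Mcee, an epimerase, by 34.1% with the smallest adjusted p of all 31 genes (2.99e-05 by edgeR). Pcca and Pccb, the subunits of propionyl-CoA carboxylase, fell by 29.6% and 27.4%, and Mut, the cobalamin-dependent mutase, by 31.3%. Mmaa and Mmab, which serve the cobalamin cofactor of that mutase, fell by 14.2% and 15.6%. Both lost their calls with library totals (adjusted p = 0.177 and 0.179 by edgeR) and were at 0.01 and -0.02 on the log2 scale with libraries scaled to cardiomyocyte markers. Scaled to tricarboxylic acid cycle genes, Mmaa passed as higher (0.20, adjusted p = 0.0279 by edgeR).

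Slc7a5 and Bcat1 rose, whereas Bcat2, also at the entry of the pathway, fell. Slc7a5, the catalytic chain of a plasma membrane carrier for large neutral amino acids, was at 12.1 ± 2.5 CPM in sham and 20.0 ± 2.2 CPM in TAC, every TAC library lying above every sham library (log2 fold change 0.71 ± 0.13, adjusted p = 0.0012 by edgeR). Such a lack of overlap upwards was seen for 12.2% of all tested genes, and 18.8% of them rose. Bcat1, the cytosolic transaminase, which is low in adult heart, rose by 1.37 ± 0.38 on the log2 scale (adjusted p = 0.0126 by edgeR), from a sham level of 1.5 ± 0.2 CPM, with TAC libraries from 1.3 to 7.2 CPM that overlapped sham. By limma-voom Bcat1 did not pass (adjusted p = 0.0551). With 1 library left out at a time it passed by edgeR, at 1.04 without TAC replicate 1, its highest library, to 1.6 without TAC replicate 5. The partner chain Slc3a2, the carriers Slc7a8 and Slc43a1 and the mitochondrial branched-chain amino acid carrier Slc25a44 did not pass, with log2 fold changes of -0.06, 0.08, 0.45 and -0.05. Slc43a1 passed without sham replicate 1, its highest sham library (0.69 ± 0.20, adjusted p = 0.0209 by edgeR). Scaled to tricarboxylic acid cycle genes, Slc3a2, Slc7a8, Slc43a1 and Slc25a44 all passed as higher, where 69.6% of all tested genes rose.

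**Figure D3:**
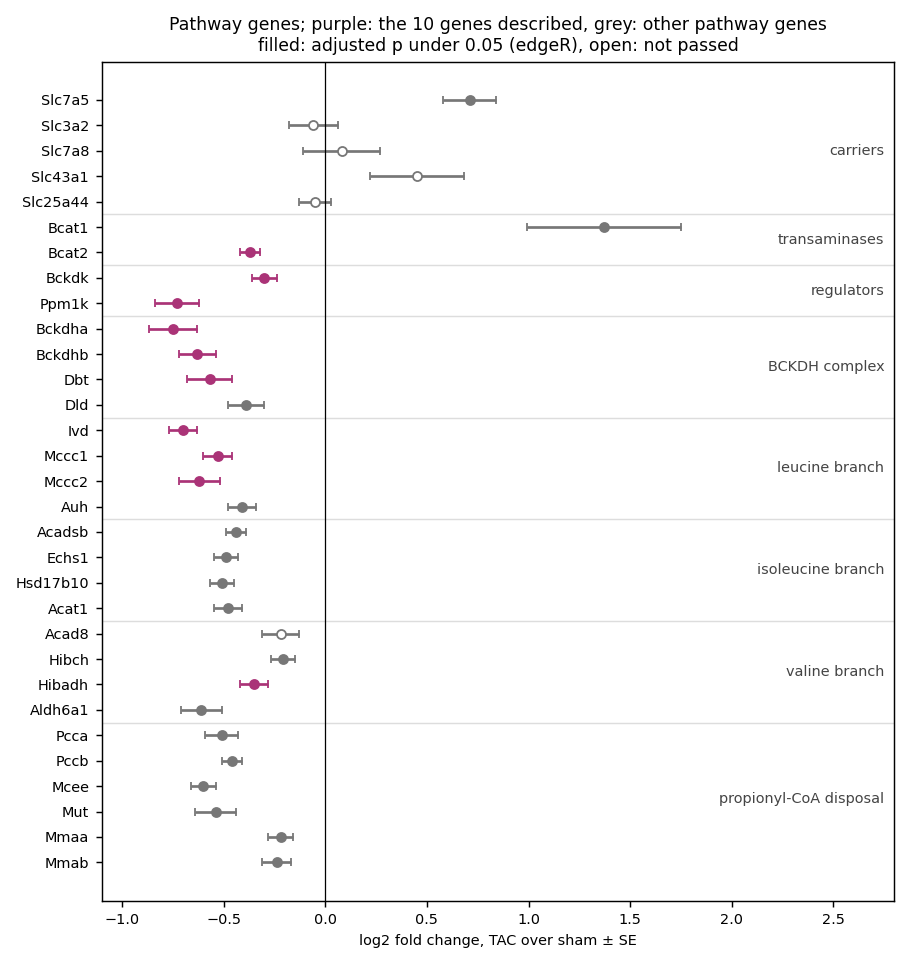
Log2 fold change, TAC over sham, ± SE of the 10 genes described (purple) and 21 other genes of the pathway (grey), by their place in it; filled points passed an adjusted p of 0.05 by edgeR and open points did not. The purple points lie between -0.75 and -0.30, and Slc7a5 and Bcat1 are the only filled points above 0.

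Markers of several cell types differed between the same libraries. Of 8 fibroblast markers 6 rose and none fell, with a summed level of 804 to 1190 CPM in sham and 2410 to 6830 CPM in TAC, highest in TAC replicate 1. Of 8 macrophage markers 7 rose, with sums of 209 to 240.0 CPM and 329 to 555 CPM. Among 12 cardiomyocyte markers 6 fell and 6 did not pass, and their median on the log2 scale was -0.23. Among 6 endothelial and 6 smooth muscle and pericyte markers, 2 of each rose and none fell. Of 6 markers of adipocytes, a cell type rich in Bcat2, 4 had too few reads to be tested, Adipoq among them at 0.614 CPM (sham) and 0.51 CPM (TAC), and Cidec and Fabp4 did not pass. The part of fibroblast and macrophage RNA in the falls was not tested.

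To set the 10 genes against cardiomyocyte transcripts, the fit over all genes was repeated with each library scaled to the summed counts of the 12 cardiomyocyte markers. Under TMM scaling these markers ranged from -0.81 (Tcap) to 0.02 (Actn2) on the log2 scale, and the part of single markers in the sum was not tested. On this scale 7 of the 10 genes fell, where 4.61% of all tested genes did, with a median log2 fold change of -0.37 for the 10 genes and 0.23 for all genes. Bcat2, Bckdk and Hibadh did not pass, at -0.14, -0.08 and -0.13. Bckdha (-0.52 ± 0.11, adjusted p = 0.00179 by edgeR) and Ppm1k (-0.50 ± 0.11, adjusted p = 0.00225 by edgeR) were the lowest of the 10, in an order that rescaling leaves nearly as it was.

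The same was done against another mitochondrial pathway, with each library scaled to the summed counts of 17 genes of the tricarboxylic acid cycle. All 17 of those fell under TMM scaling, with a median log2 fold change of -0.42 and a range from -0.68 (Idh2) to -0.32 (Dlst). Relative to their summed counts, 5 of the 10 genes fell, where 1.52% of all tested genes did and 69.6% rose. These 5 were Bckdha (-0.33 ± 0.11, adjusted p = 0.0135 by edgeR), Ppm1k (-0.31 ± 0.10, adjusted p = 0.0126), Ivd (-0.28 ± 0.07, adjusted p = 0.00219), Bckdhb (-0.22 ± 0.08, adjusted p = 0.0251) and Mccc2 (-0.20 ± 0.08, adjusted p = 0.0283). Dbt and Mccc1 were at -0.15 ± 0.10 and -0.11 ± 0.07 and did not pass. Bckdk, Bcat2 and Hibadh were at 0.12 ± 0.10, 0.06 ± 0.08 and 0.06 ± 0.07, so their direction turned and did not pass either. Whether those that passed differ from those that did not was tested only through the ratios of Bckdk to Ppm1k, Dbt to Bckdha and Mccc1 to Mccc2. None of these passed (adjusted p = 0.159, 0.302 and 0.444 by the exact permutation test). Bcat2 and Hibadh were in no ratio.

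**Figure D4:**
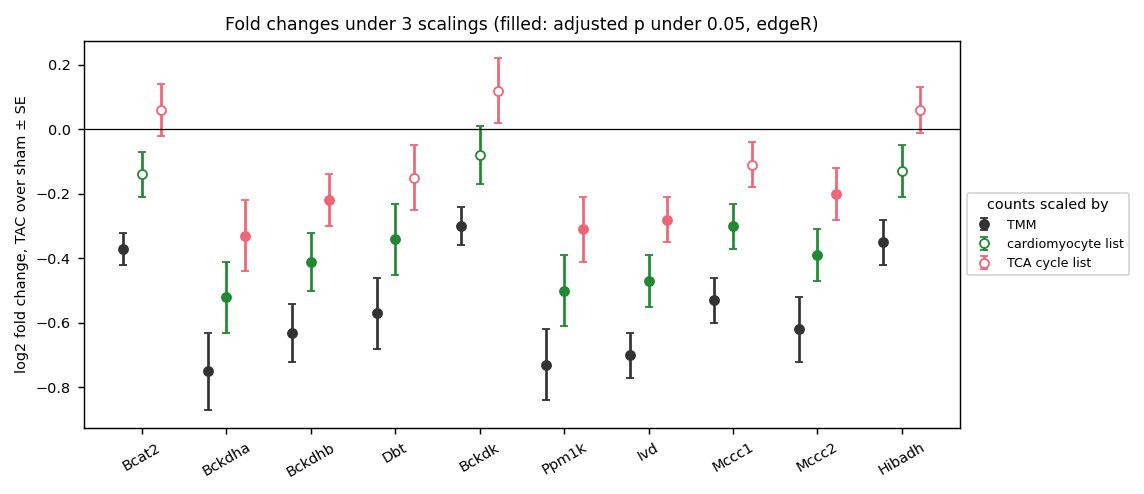
Log2 fold change, TAC over sham, ± SE of the 10 genes with libraries scaled by TMM (black), by the summed cardiomyocyte markers (green) and by the summed tricarboxylic acid cycle genes (TCA, red); filled points passed an adjusted p of 0.05 by edgeR. All 10 genes pass under TMM, 7 under the cardiomyocyte scale and 5 under the tricarboxylic acid cycle scale, where Bckdk, Bcat2 and Hibadh lie just above 0.

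The libraries of a group differed among themselves. In sham, replicate 2 had the lowest level in 7 of the 10 genes and replicate 4 the highest in 6. In TAC, replicate 1 had the lowest level in 6 of the 10 genes and replicate 3 in 3, while replicate 4 was highest in 4 and replicate 5 in 3. The TMM factor was 1.006 in sham replicate 2 and 0.943 to 0.96 in the other sham libraries. Whether these ranks are particular to the 10 genes or shared by all tested genes was not tested. The coefficient of variation was 3.86% (Bckdk) to 13.3% (Ppm1k) in sham and 2.52% (Bcat2) to 18.0% (Bckdha) in TAC.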

How the data were processed

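The authors deposited whole-number read counts per Ensembl gene, not normalized, for all 10 libraries, which are single-end and do not keep the strand, per the labels' protocols. Per the submitters' processing notes, HTSeq was used for both groups, with TopHat2 2.0.10 and Bowtie2 on mm10 for sham, and with TopHat 1.3.0 and Bowtie on mm9 and mm10 for TAC. The file header names GRCm37. No source used here gives the counting settings. The row of totals was left out. The mean chi-square per gene was 2.66 to 25.1 within the 20 same-group pairs of libraries, far above sampling noise, so all 10 were kept as separate replicates.

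Tests used edgeR 4.0.16 (R 4.3.3): TMM, filterByExpr (minimum count 10, minimum total 15), quasi-likelihood F tests with group as the only term, and adjustment over 12001 genes at 0.05. Ratios used counts plus 0.5. Gene positions, lengths and overlaps came from GENCODE M21 (GRCm38) by Ensembl ID, and promoter windows from RefSeq by symbol. Alternatives used limma 3.58.1 and DESeq2 1.42.0. The method was also run on simulated data with fewer changed genes than here and no change as small as those of Bckdk, Hibadh, Bcat2, Mccc1 and Dbt. That run does not test the scaling or the smaller falls. The 10 genes and all lists were chosen with earlier results of these data known. All 10 genes are named with values; of the other pathway genes 21 are counted and named, and 1 is not reported here.

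Replicate numbers are shared by both groups, but the deviations of same-numbered libraries correlated at -0.092 to 0.222 and were above 0.1 in 1 of 5 numbers, so the numbers were not taken as pairs.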

Additional observations from a re-analysis of the deposited data

Results flagged for a closer look

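One value stood apart from its group. The ratio of Mccc1 to Mccc2 counts was 0.91 in TAC replicate 1, the library that did not match its female label, and 0.701 to 0.719 in the other 4 TAC libraries. It was the only value so marked by Dixon's criterion at the 95% level among 60 groups of 5 libraries checked, where chance marks about 1 group in 20. Without that library the log2 difference of this ratio between TAC and sham was 0.03 in place of 0.10.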

How the results depend on the processing

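All 10 genes fell under each of 16 alternatives that did not scale to a gene list: size factors, library totals, no low-count filter, DESeq2, limma-voom, the replicate block and each of 10 sets without 1 library. The highest adjusted p over these was 0.0373, for Bckdk with library totals (edgeR). With library totals the median of all genes moved to 0.11 on the log2 scale, and 3257 genes rose and 1159 fell. With the replicate block, 4037 genes and 17 of the other pathway genes passed, Acad8 now among them (adjusted p = 0.0363; it also passed without TAC replicate 4 and without TAC replicate 5), and the block changed no call of the 10 genes. For the 4 ratios, the sign-flip form of the block (adjusted p = 0.25 for Bckdk to Ppm1k) cannot go low enough to pass with 5 pairs.

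Scaled to the tricarboxylic acid cycle genes, 8535 genes passed over the whole table and 5 of the 10 genes; of the other pathway genes 10 passed, 8 of them higher, in place of 16 with 2 higher. The direction turned for Bcat2 (0.06), Bckdk (0.12), Hibadh (0.06), Slc3a2 (0.36), Slc25a44 (0.38), Dld (0.02), Auh (0.00), Acad8 (0.19), Hibch (0.21), Mmaa (0.20) and Mmab (0.17). Of these, Slc3a2, Slc25a44, Hibch and Mmaa passed as higher (adjusted p = 0.0162, 0.0067, 0.022 and 0.0279 by edgeR), and the others did not pass. Scaled to the cardiomyocyte markers it turned for Slc3a2 (0.17), Slc25a44 (0.18), Acad8 (0.00), Hibch (0.02) and Mmaa (0.01), and with library totals for Slc3a2 (0.05) and Slc25a44 (0.06). Hibch, Mmaa and Mmab did not pass with library totals. These shifts follow from the scale, which moves all genes alike. Leaving out 1 library at a time gave Slc25a44 -0.09 to 0.02, Slc7a8 -0.06 to 0.22 and Slc3a2 -0.14 to 0.03, none of which passed in those sets. With tricarboxylic acid cycle scaling all of them passed as higher by edgeR: Slc25a44 (0.38, adjusted p = 0.0067), Slc7a8 (0.51, adjusted p = 0.0478) and Slc3a2 (0.36, adjusted p = 0.0162). Slc43a1 was at 0.33 to 0.69 in the sets without 1 library and passed without sham replicate 1 (adjusted p = 0.0209). It also passed with cardiomyocyte (0.67, adjusted p = 0.0344) and tricarboxylic acid cycle scaling (0.87, adjusted p = 0.00493). Bcat1 and Slc43a1 had the lowest levels of these genes. The part of depth in their calls was not tested.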
